A study of Caenorhabditis elegans with 4 samples.

Results

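EPC-1 peaks on chromosome V of Caenorhabditis elegans were taken from ChIP-seq of whole L3 larvae of the wild-type strain N2, and the labels name no transgene, mutation or treatment. The members are all peaks that the authors placed on chromosome V, 511 of 3455 in replicate 1 and 414 of 2833 in replicate 2, or 925 of 6288 over both lists. Each list comes from 1 immunoprecipitation with antibody SDQ0820, raised against EPC-1, after crosslinking of ground frozen worms with EGS and then EGS plus formaldehyde. A second crosslinking text in the labels names formaldehyde alone. The series has 4 samples, and the 2 input DNA samples were not analysed here. Whole larvae mix all tissues, so a peak cannot be assigned to a cell type. Read depth is unknown, and the labels do not say that the replicates came from separate cultures, so the spread between them may be technical.

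EPC-1 belongs to the Enhancer of Polycomb family. In yeast and mammals the family member is a scaffold subunit of the NuA4 or Tip60 complex, which acetylates the tails of histones H4 and H2A at active genes. Worm chromosomes are holocentric, so the terms arm and centre refer to position along the chromosome and not to a centromere. On the autosomes the centres carry most of the conserved and essential genes and recombine little. The arms recombine more and hold more repeats and fast-evolving gene families, of which chromosome V is known for its large clusters of chemoreceptor genes. The files assign no genes to the peaks, and no gene is named here because the gene table at hand is of another genome build. For the same reason no sequence is shown.

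Chromosome V was long and thinly covered by EPC-1 peaks. All positions are 1-based coordinates of WormBase release WS190 as deposited. The outermost peaks of both lists spanned 20.8 Mb, from 7396 to 20848355, which is 20.9% of the summed peak spans of the 6 chromosomes. That span held 14.8% of the replicate 1 peaks and 14.6% of the replicate 2 peaks. The density was 24.5 peaks per Mb in replicate 1 and 19.9 in replicate 2, a mean of 22.2 ± 3.29 (SD, n = 2). On chromosomes I to IV together it was 42.2 and 35.2 peaks per Mb, and only X, at 19.7 and 14.5, was sparser than V. Peaks covered 4.56% of V in replicate 1 and 4.11% in replicate 2. No p-value is given for this or for the comparisons along the chromosome, since with 2 lists the smallest p of an exact permutation of signs (two-sided) is 0.5.

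The peaks themselves were much like those of the other autosomes in width, and in replicate 2 also in median score. V peaks had a median width of 1543 bp (replicate 1) and 1695 bp (replicate 2), against 1572.5 and 1713 bp on chromosomes I to IV. The deposited score is the authors' own value for each peak, with no stated scale, a lower limit of about 50 and a pile of peaks tied at 3100. The median score on V was 215 in replicate 1 and 252 in replicate 2, against 263 and 258 on I to IV. In replicate 1 it was below the median of each of I to IV, of which the lowest was 243 on IV. The lowest score quartile of the whole list took in 29.2% of V peaks in replicate 1 and 26.3% in replicate 2. On I to IV it took in 23.3% and 23.6%. Of the V peaks, 38 in replicate 1 (7.44%, exact Clopper-Pearson 95% interval 5.32 to 10.1) and 34 in replicate 2 (8.21%, 5.75 to 11.3) reached 3100 or more. The share over all chromosomes was 6.48% in replicate 1 and 7.27% in replicate 2, inside those intervals, which cover counting error only. Higher scores went with wider peaks. Across V peaks Spearman's rho between score and width was 0.67 in replicate 1 (511 peaks) and 0.60 in replicate 2 (414 peaks), a description across peaks of 1 library each.

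Taken as a whole, the middle section of V was the densest in both lists. The span was divided into 3 sections of equal length, called left arm (to 6954382), centre (6954383 to 13901368) and right arm (from 13901369), and each peak was placed by its midpoint. In replicate 1 the left arm held 162 peaks, the centre 216 and the right arm 133, or 23.3, 31.1 and 19.1 peaks per Mb. In replicate 2 the counts were 119, 173 and 122, or 17.1, 24.9 and 17.6 peaks per Mb. The centre exceeded each arm in both lists, and its density was 1.46 times that of the arms together in replicate 1 and 1.44 times in replicate 2 (mean 1.45 ± 0.020, SD, n = 2). Most sites were common to both lists, so this SD describes the 2 lists and not a population of worms.

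The full lists did not give the arms the same order. Replicate 1 placed fewer peaks in the right arm than in the left, with a right to left ratio of 0.82, whereas replicate 2 placed almost equal numbers there, with a ratio of 1.03. The mean ratio of 0.92 ± 0.14 (SD, n = 2) lies within that spread of equality. With peaks scoring 100 or more, both lists placed fewer peaks in the right arm than in the left, at ratios of 0.92 and 0.90, and so did the shared peaks (0.94 and 0.97), the peaks at or above each list's median score (0.88 and 0.80) and arms cut at 25% of the span (0.72 and 0.89). Replicate 1 held 1.36 times as many peaks as replicate 2 in the left arm, 1.25 times in the centre and 1.09 times in the right arm. Peaks scoring under 100 made up 33.3% of the replicate 1 left arm and 16.8% of that of replicate 2. In the centre the same shares were 23.6% and 26.6%, and in the right arm 25.6% and 27.05%. Of the 43 peaks by which replicate 1 exceeded replicate 2 in the left arm, the difference in peaks under 100 (54 against 20) made up 34. In the centre, where the excess was also 43, it made up 5. Paired V peaks below 3100 in both lists had a median score ratio of 1.30 toward replicate 1. A cut at 100 is therefore not the same cut in both lists.

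With sections of equal length and all peaks, neither width nor score differed between centre and arms in the same direction in both lists. In replicate 1 the median width was 1509 bp in the left arm, 1557.5 bp in the centre and 1550 bp in the right arm. In replicate 2 it was 1752, 1682 and 1680 bp. The difference between medians, centre less both arms, came to 27.5 bp for replicate 1 and -24 bp for replicate 2. The lists disagreed in direction, and no difference in width is called. Median scores in the left arm, centre and right arm were 206, 216 and 231 in replicate 1 and 308, 233 and 220 in replicate 2, in opposite orders. Other settings gave both lists a common direction, but not the same one. Where the centre was taken as the middle 50% of the span, its median score was 1.12 and 1.15 times that of the arms. Its median width then exceeded theirs by 58 bp in replicate 1 and 6 bp in replicate 2. In equal sections the score ratio was 0.86 and 0.99 with peaks scoring 100 or more, and 0.97 and 0.87 with shared peaks. The width differences there were 23 and 9.5 bp with peaks scoring 100 or more, and -14 and -27 bp with shared peaks. The bases covered came to 4.37%, 5.84% and 3.49% of the left arm, centre and right arm in replicate 1 and 3.69%, 5.17% and 3.49% in replicate 2. The centre was thus the most covered in both lists. In replicate 1 the sections kept the order of their peak counts. In replicate 2 the left arm was covered more than the right, although it held 119 peaks against 122.

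**Figure D1:**
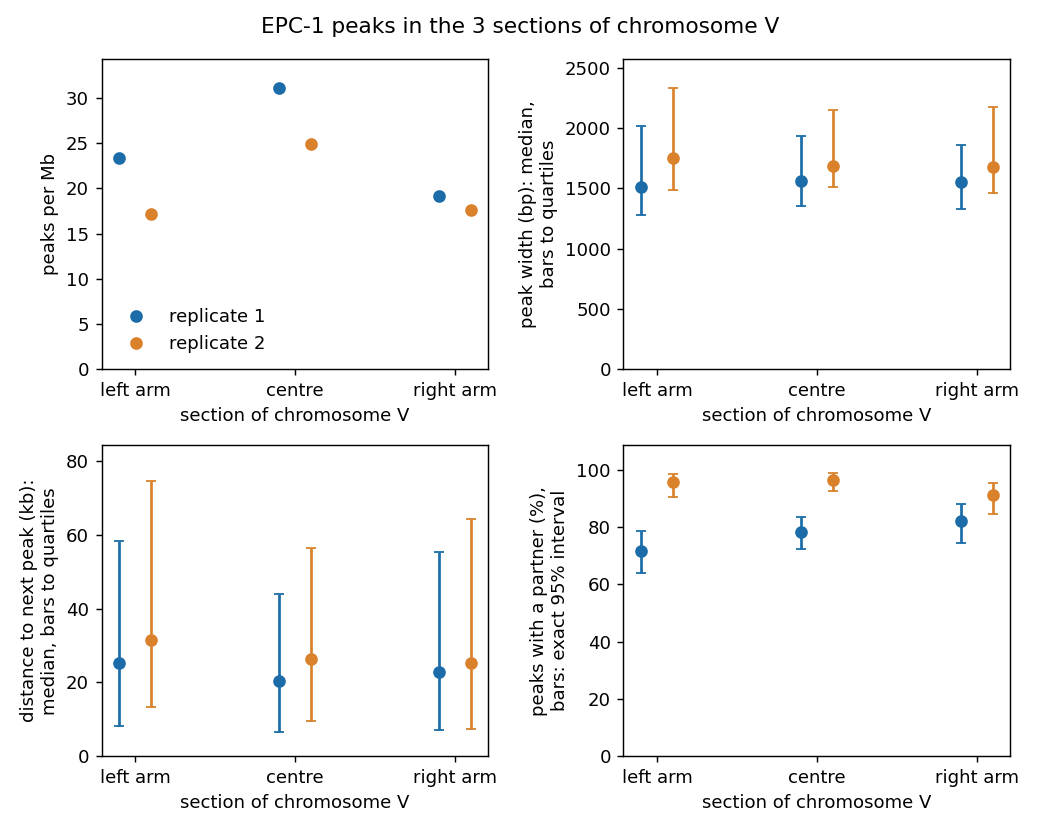
Peak density (peaks per Mb), peak width (bp), distance to the next peak (kb) and share of peaks with a partner in the other list (%) in the left arm, centre and right arm of chromosome V, for replicates 1 and 2. Points are the density, the median or the share, bars run to the quartiles or the exact 95% interval, and the centre has the highest density in both lists (31.1 and 24.9 peaks per Mb) while the widths overlap.

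Set beside the other chromosomes, V had a high ratio of centre to arms. The ratio on II was 1.44 in replicate 1 and 1.36 in replicate 2, on I it was 1.25 and 1.20, on IV 1.25 and 1.12, on III 1.22 and 1.16, and on X 0.90 and 0.75. V was the highest of the 6 in each list, though in replicate 1 it stood only just above II. This order was not tested, since each chromosome gives 1 value a list. The densest section of V, with 31.1 and 24.9 peaks per Mb, was still sparser than the centres of I to IV, which ran from 39.6 to 57.8 peaks per Mb in replicate 1 and from 29.98 to 47.7 in replicate 2.

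**Figure D2:**
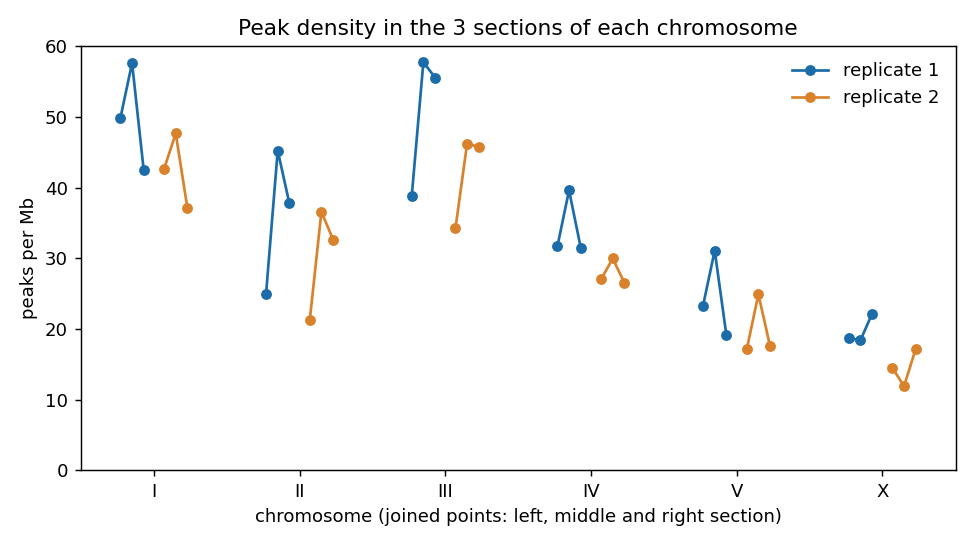
Peak density (peaks per Mb) in the left, middle and right section of each chromosome, joined by lines, for replicates 1 and 2. On V the middle section is the highest of the 3 in both lists, and it lies below the middle section of I, II, III and IV.

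On a finer scale the counts rose and fell several times along V, with a dip in bin 4, a maximum in bin 11 and low values from bin 16 to bin 20. In 20 full bins of 1 Mb laid from the left end of the span, counts ran from 10 to 46 in replicate 1 (median 25.5) and from 7 to 38 in replicate 2 (median 20). The coefficient of variation over bins was 36.1% and 40.5%. The fullest bin by mean count, bin 11 from 10007396 to 11007395, held 46 peaks in replicate 1 and 38 in replicate 2. Bin 15, from 14007396 to 15007395, came next with 34 and 33, followed by bin 12, from 11007396 to 12007395, with 32 and 26. The emptiest was bin 4, from 3007396 to 4007395, with 10 peaks in replicate 1 and 7 in replicate 2. Bins 18 and 17 followed, from 17007396 to 18007395 with 11 and 9 peaks and from 16007396 to 17007395 with 13 and 9.

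The change between bins 15 and 16 was abrupt. The 5 neighbouring bins from 10007396 to 15007395 held 173 peaks in replicate 1 and 147 in replicate 2, which was 33.9% and 35.5% of all V peaks in 23.99% of the span. The next 5 bins, from 15007396 to 20007395, held 73 and 65 peaks, or 14.3% and 15.7%. Density fell from 34.6 to 14.6 peaks per Mb in replicate 1 and from 29.4 to 13 in replicate 2, and covered bases fell from 6.53% to 2.42% and from 6.03% to 2.45%. These are the fullest and the sparsest run of 5 neighbouring bins and were picked for that. The peaks that remained in the sparse stretch had a median width of 1480 bp in replicate 1 and 1628 bp in replicate 2, against 1561 and 1673 bp in the dense one. Beyond it, the last 0.84 Mb of the span held 23 and 22 peaks, or 27.3 and 26.2 per Mb. Division into 3 sections hides this, because the right arm joins the dense bin 15 and the tip to the sparse bins. The centre was not dense throughout either. Its bins 8, 9 and 10 held 28, 24 and 27 peaks in replicate 1 and 21, 15 and 25 in replicate 2. Bins 5, 6 and 7 to their left held 25, 29 and 28 in replicate 1 and 21 each in replicate 2.

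Both lists traced the same profile. Replicate 1 had more peaks than replicate 2 in 19 of the 20 bins and fewer in 1, bin 19 from 18007396 to 19007395, with 16 against 19. Pearson's r between the bin counts of the lists was 0.93 and Spearman's rho 0.94 (20 bins, a description, since the bins share the lists and their call threshold). In bin 19, 6 of 19 replicate 2 peaks lacked a partner, with scores from 51.1 to 131. Bin 3, from 2007396 to 3007395, had the largest share of unpartnered peaks in replicate 1, 9 of 22 (40.9%). In bin 15, by contrast, only 2 of 34 replicate 1 peaks and none of 33 replicate 2 peaks were unpartnered.

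**Figure D3:**
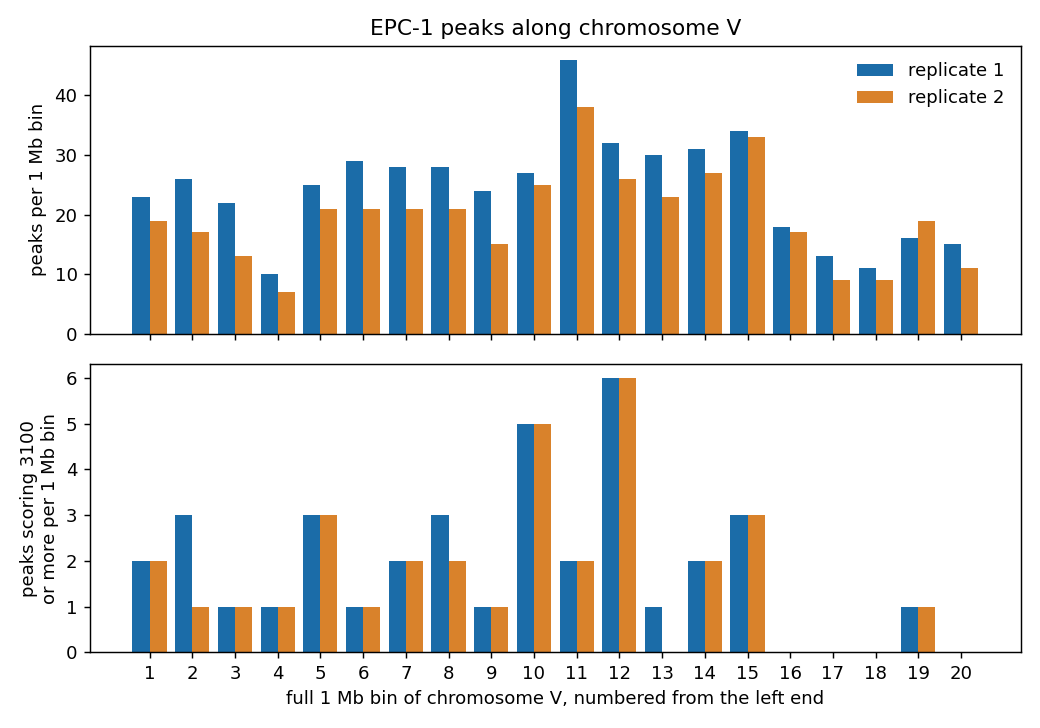
Number of EPC-1 peaks (upper panel) and of peaks scoring 3100 or more (lower panel) in each full 1 Mb bin of chromosome V, numbered from the left end, for replicates 1 and 2. Counts are highest in bin 11 (46 and 38), fall after bin 15 (34 and 33), and bins 16, 17, 18 and 20 hold no peak scoring 3100 or more in either list.

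The highest scores were unevenly placed as well. Of the 38 replicate 1 peaks at or above 3100, 13 lay in the left arm, 19 in the centre and 6 in the right arm, and of the 34 in replicate 2 the counts were 11, 17 and 6. As a share of each section's own peaks this was 8.02%, 8.80% and 4.51% in replicate 1 and 9.24%, 9.83% and 4.92% in replicate 2, with intervals that overlapped (1.67 to 9.56 in the right arm and 5.38 to 13.4 in the centre of replicate 1). Bins 10 and 12 held 5 and 6 of them in each list. No peak of either list reached 3100 between 14525517 and 19000239, a stretch of 4.47 Mb with 69 peaks in replicate 1 and 64 in replicate 2, of which the highest scored 2701 and 2546. The last peak on the chromosome, which sets the end of the span at 20848355, was at 3100 in both lists. Peaks in the highest score quartile of the whole list fell in the centre in 40.2% of cases in replicate 1 (51 of 127) and 44.4% in replicate 2 (44 of 99). In the lowest quartile the shares were 35.6% (53 of 149) and 45.9% (50 of 109), so the lists gave no common trend of central position with score.

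Spacing on V was uneven, with many close neighbours and a long tail of wide gaps. From one midpoint to the next the median distance was 23.3 kb for replicate 1 (quartiles 7.09 and 50.9 kb) and 27.6 kb for replicate 2 (9.32 and 61.5 kb). The mean distances were far larger, at 40.9 and 50.5 kb. On I to IV the medians were 13.2 and 16.5 kb. Neighbours under 5 kb apart made up 16.9% of V neighbours in replicate 1 and 13.8% in replicate 2, against 22.1% and 17.1% on I to IV. Median distances in the left arm, centre and right arm were 25.1, 20.5 and 22.9 kb in replicate 1 and 31.6, 26.3 and 25.4 kb in replicate 2. The right arm thus came close to the centre in its median spacing although its mean spacing, 52.6 and 57.3 kb, was well above the 31.7 and 39.7 kb of the centre. Its peaks sat in groups between long empty stretches.

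Close neighbours formed short runs. The lists merged into 528 regions on V, and 232 of these (43.9%) stood in 102 runs in which neighbouring regions were less than 5 kb apart from edge to edge. Runs took in 41.2% of the merged regions of the left arm, 47.03% of the centre and 42.4% of the right arm. Only 2 runs had 4 regions, the most on V. One, from 6088327 to 6108243 in the left arm, was 19.9 kb long with 3 peaks in each list. The other, from 7220444 to 7238116 in the centre, was 17.7 kb long with 4 peaks in replicate 1 and 3 in replicate 2, and 2 of its peaks scored 3100 in each list. Of the 24 further runs of 3 regions, the first along the chromosome ran from 903267 to 916444 with 3 and 2 peaks. Merging joins overlapping peaks, so the count of regions is not the count of peaks. A run of 3 regions in the centre, from 13645163 to 13666010, was 20.8 kb long. It held 5 peaks in replicate 1 and 4 in replicate 2, more than either run of 4 regions.

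The longest peak-free stretches lay in the arms. In stretches of 100 kb or more with no peak in either list, of which V had 49, lay 39.04% of its span. The corresponding share was 10.1% on I, 17.5% on II, 8.81% on III, 21.4% on IV and 44.1% on X. Within V these stretches took up 39.4% of the left arm (18 stretches), 22.9% of the centre (12) and 54.9% of the right arm (19). All 7 stretches over 200 kb lay in the arms, 2 in the left and 5 in the right, and the longest of the centre was 194 kb. Counted in each list alone, stretches over 200 kb were again absent from the centre and numbered 2 and 5 in the left and right arm of replicate 1 and 5 and 5 in replicate 2. An empty stretch means that no peak passed the authors' threshold there; with no reads or input at hand, unmappable sequence and low coverage cannot be told apart from a lack of EPC-1.

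The longest stretch ran from 2827538 to 3387968 in the left arm (560 kb), and both lists left it empty to within a few kb, at 561 kb in replicate 1 and 563 kb in replicate 2. The next 5 were in the right arm, from 17116823 to 17659100 (542 kb), 18140594 to 18533113 (393 kb), 19195505 to 19520603 (325 kb), 16023562 to 16341436 (318 kb) and 19644981 to 19903817 (259 kb). In replicate 2 alone the second of the 6 extended to 17856904, a length of 740 kb, because a replicate 1 peak from 17659101 to 17660519 with a score of 204 had no partner. The third was longer in replicate 1 alone, 473 kb, because its right edge was a replicate 2 peak without a partner. It was also longer in replicate 2 alone, 445 kb from 18087661, because its left edge was an unpartnered replicate 1 peak. The fifth ran from 15881519 to 16355172 in replicate 2 alone, 474 kb, because both its edges were unpartnered replicate 1 peaks.

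**Figure D4:**
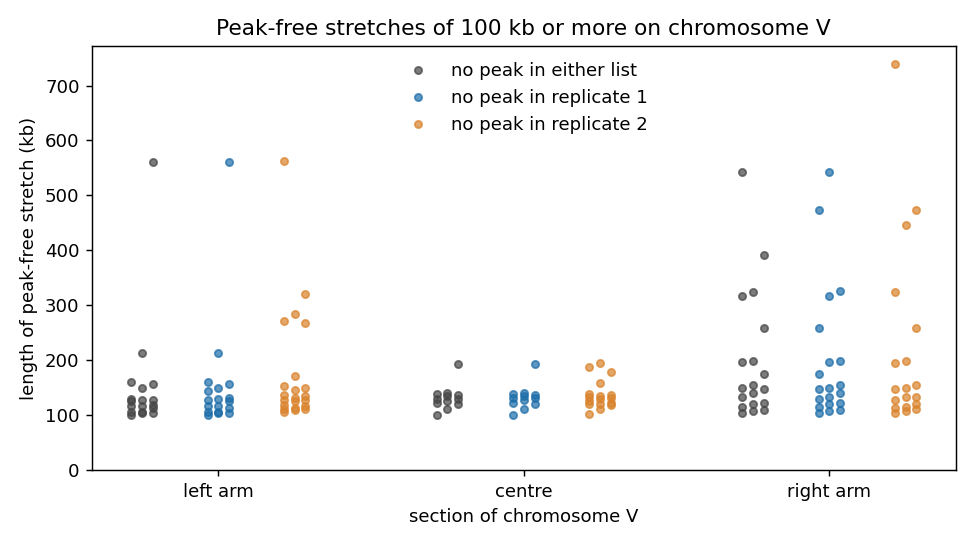
Length (kb) of each stretch of 100 kb or more without an EPC-1 peak, in the left arm, centre and right arm of chromosome V, for both lists together and for each replicate alone. Every point of the centre lies below 200 kb, and the longest stretches, 560 kb with no peak in either list and 740 kb in replicate 2, lie in the left and right arm.

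Most V peaks had a partner in the other list. Of 511 replicate 1 peaks, 394 overlapped a replicate 2 peak by at least 1 bp (77.1%, exact interval 73.2 to 80.7), against 79.0% of all replicate 1 peaks. Of 414 replicate 2 peaks, 392 overlapped a replicate 1 peak (94.7%, 92.1 to 96.6), against 95.1% of all replicate 2 peaks. Both whole-list shares, which include V and X, lay inside the V intervals. On chromosomes I to IV together the shares were 80.9% in replicate 1 and 95.5% in replicate 2. The first of these lay just above the V interval. In replicate 1, V had the lowest share of the autosomes, the next being 78.7% on IV. In replicate 2, II was lower than V, at 94.6%. In replicate 1 the partnered share was 71.6% in the left arm (64.0 to 78.4), 78.2% in the centre (72.1 to 83.6) and 81.95% in the right arm (74.4 to 88.1). In replicate 2 it was 95.8% (90.5 to 98.6), 96.5% (92.6 to 98.7) and 90.98% (84.4 to 95.4). The right arm was highest in one list and lowest in the other, and neighbouring intervals overlapped. The centre lay above both arms together by 1.97 percentage points in replicate 1 and 3.17 in replicate 2. With peaks scoring 100 or more in both lists, the replicate 1 difference, centre less arms, became -4.80 points, so no difference between centre and arms is called.

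Whether a V peak had a partner went with its score. In the lowest score quartile of the whole list, 56 of 149 replicate 1 peaks on V (37.6%, 29.8 to 45.9) and 90 of 109 replicate 2 peaks (82.6%, 74.1 to 89.2) had one. In the highest quartile it was 126 of 127 (99.2%, 95.7 to 99.98) and 99 of 99 (interval from 96.3% up). On chromosomes I to IV the shares were much the same, at 41.2% and 84.3% in the lowest quartile and 100% in both lists in the highest. The 117 unpartnered replicate 1 peaks had a median score of 77.7 and a median width of 1289 bp, against 350 and 1614 bp in the partnered ones. The 22 unpartnered replicate 2 peaks had a median score of 68.6. The nearest peak of the other list lay a median of 11.7 kb away for replicate 1 and 8.56 kb for replicate 2, and for 38 of 117 and 8 of 22 it was within 5 kb.

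Only 6 unpartnered peaks, all of replicate 1, scored over 200. The highest, from 2485725 to 2488931 (3207 bp, score 910), and the next, from 2527885 to 2533679 (5795 bp, score 289), lay 38953 bp apart in the left arm. Both fell inside a single stretch of 321 kb, from 2278739 to 2600096, in which replicate 2 had no peak and replicate 1 had 4. The third, from 6997008 to 6999231 (score 262), and the fourth, from 7727353 to 7729226 (215), were in the centre, and the fourth lay 4.91 kb from a replicate 2 peak. In replicate 2 the highest were from 18533114 to 18534539 (131), 974706 to 976069 (126), 6088327 to 6089831 (107) and 20121594 to 20123736 (97.9), the last only 0.45 kb from a replicate 1 peak.

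Paired peaks agreed closely in position and rank on V. One-to-one pairing by largest overlap gave 390 pairs, whose midpoints lay a median of 49.3 bp apart. Spearman's rho between the scores was 0.91 over all pairs and 0.88 over the 353 pairs below 3100 in both lists, a description across peaks of 2 libraries. The replicate 1 score was the higher in 263 of these 353 pairs (74.5%), with a median ratio of 1.30 (quartiles 0.99 and 1.67). Over all chromosomes it was the higher in 1852 of 2449 such pairs (75.6%), with the same median ratio of 1.30. Within V the share was 67.6% in the left arm, 80.4% in the centre and 72.8% in the right arm, with median ratios of 1.24, 1.36 and 1.29. Replicate 2 peaks were the wider in 294 of 390 pairs (75.4%), by a median of 104.5 bp, and this held in left arm, centre and right arm at 115, 103 and 99 bp. Over all chromosomes they were the wider in 71.6% of 2681 pairs, by a median of 82 bp. The median midpoint distance over those pairs was 48 bp. Spearman's rho between their scores was 0.91, or 0.88 below 3100 in both lists, so V was close to the whole lists.

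**Figure D5:**
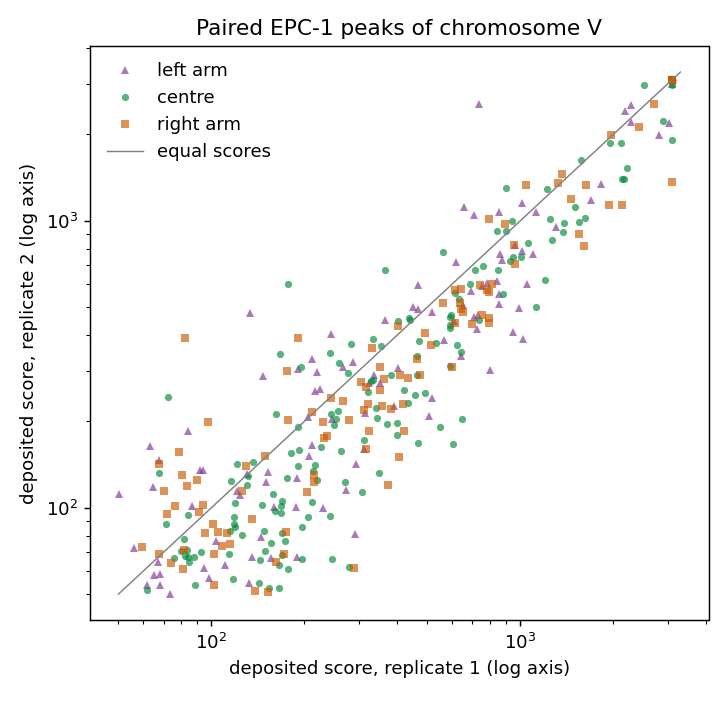
Deposited score of each one-to-one pair of EPC-1 peaks on chromosome V, replicate 1 against replicate 2 on log axes, marked by section, with a line of equal scores. Of the 353 pairs below 3100 in both lists, 263 lie on the replicate 1 side of the line, and 33 pairs stand at or above 3100 in both.

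A few pairs departed from the common ratio, in both directions. Of the 353 V pairs below 3100 in both lists, 51 had a ratio above 2 toward replicate 1. A ratio as large toward replicate 2 was found in 14. The centre, with 148 of the 353 pairs, held 29 of the 51 and 3 of the 14. The whole lists gave 420 and 69 pairs of these kinds, in that order, among 2449 below 3100 in both. The most extreme pair of each kind lay side by side in the right arm. The region from 19520604 to 19523486 scored 82.2 in replicate 1 and 391 in replicate 2, a ratio of 4.76 toward replicate 2. Only 4552 bp further on, the region from 19528039 to 19529985 scored 290 and 61.9, a ratio of 4.69 toward replicate 1. Both follow directly on the peak-free stretch that ends at 19520603. Each list had a single peak in both regions. Other pairs toward replicate 1 were from 10769476 to 10771148 (279 and 62.3, ratio 4.48) and from 10047957 to 10050151 (246 and 66.1, 3.72), both in the fullest bin. Toward replicate 2 the next pairs were from 1253922 to 1258139 (133 and 478, 3.59) and from 1150334 to 1159030 (736 and 2549, 3.46), both in the left arm. In each of these, 1 replicate 2 peak covered 2 replicate 1 peaks, so the pair sets a whole domain against part of one. The other replicate 1 peak scored 108 in the first region. In the second it ran from 1149027 to 1152592 and scored 3100, above the replicate 2 peak, so the region as a whole is not read as stronger in replicate 2.

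Broad peaks carried a fair part of the covered bases. Peaks of 3 kb or more numbered 43 in replicate 1 (8.41%, exact interval 6.16 to 11.2) and 44 in replicate 2 (10.6%, 7.83 to 14.0), against 7.96% and 11.6% over all chromosomes, and held 20.9% and 23.2% of the bases covered on V. All 44 of replicate 2 and 40 of 43 of replicate 1 had a partner, against 94.7% and 77.1% of all V peaks. No such count is given for broad peaks of the other chromosomes, so this is not read as a trait of V. They occurred in all 3 sections, 15, 15 and 13 times from left to right in replicate 1 and 14, 18 and 12 times in replicate 2. In the right arm the widest peak measured 6197 bp (replicate 1) and 6746 bp (replicate 2).

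The 5 widest pairs lay in the left arm and the centre. From 6219409 to 6229893 a single peak in each list measured 10259 bp in replicate 1 and 10485 bp in replicate 2, with scores of 2807 and 1994. From 7915443 to 7925586 the widths were 9929 and 10144 bp and the scores 3100 and 1913. The region from 1150334 to 1159030, named above, paired 6205 bp of replicate 1 with 8697 bp of replicate 2, which also covered part of a second replicate 1 peak of 3566 bp. From 9338338 to 9345482 the widths were 7125 and 7097 bp, with 3100 in both lists. The fifth, from 13649843 to 13659711, was divided differently by the lists. Replicate 1 had a peak from 13649543 to 13651390 and another from 13652359 to 13659711. A single replicate 2 peak, from 13649843 to 13656118, overlapped both. The next replicate 2 peak, from 13659636 to 13661762, entered only the right end of the region. The paired peaks of 7353 and 6276 bp had midpoints 3054.5 bp apart.

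Pairs at or above 3100 in both lists numbered 33 of 390 on V (8.46%), against 195 of 2681 over all chromosomes (7.27%). By section they were 11 of 114 in the left arm (9.65%), 17 of 167 in the centre (10.2%) and 5 of 109 in the right arm (4.59%). The widest of them in the left arm ran from 723656 to 728757 (4712 bp in replicate 1 and 5102 bp in replicate 2) and from 3585589 to 3589082 (3374 and 3494 bp). The second of these stands in the emptiest bin. In the centre they were the region from 9338338 and that from 11118086 to 11125089 (6882 and 4657 bp). In the right arm they were from 14522723 to 14525516 (2673 and 2548 bp) and from 14037646 to 14039604 (1860 and 1959 bp), both in bin 15 and narrower than those of the left arm and centre. The first of them is the last tied peak before the 4.47 Mb in which none occurred.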

How the data were processed

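EPC-1 ChIP-seq of L3 larvae gave 2 peak lists, 1 for each immunoprecipitation. Per the submitters' processing notes, BWA was used for alignment. Positions are WormBase WS190, per the file headers. Peak names carry MACS and the source column MA2C, and no source used here gives the read depth, the calling parameters or whether the input entered the calling. The deposited score per peak was made by the authors on an unstated scale and was used only to rank and split peaks within a list or to set paired peaks side by side. Fragments of 250 to 500 bp had been cut from a gel, per the labels' protocols.

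From these, counts, densities, widths, spacing, peak-free stretches and overlaps (1 bp or more) were computed for chromosome V, keeping the lists apart. One-to-one pairs were formed in order of overlap, largest first. Shares have exact Clopper-Pearson 95% intervals, which cover counting error only. No test was made, since peaks of 1 list are not replicates and 2 lists are too few for an exact test. Named regions followed a rule: the 5 widest pairs, the 2 widest tied pairs of each section, the 3 most unequal pairs each way, the 4 highest unpartnered peaks of each list, the 6 longest empty stretches, the 3 fullest and emptiest bins and the 3 runs with most merged regions. The 5-bin stretches, the stretch without tied scores, bins 3 and 19, the 20.8 kb run and the last peak were picked after their values were seen. The members and the rule were chosen with earlier results of these data known. The code was tested on simulated lists. Calculations used Python 3.11.15 with SciPy 1.17.1, pandas 2.3.3 and NumPy 2.4.6, and figures matplotlib 3.10.9.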

Additional observations from a re-analysis of the deposited data

How the results depend on the processing

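Of 57 recomputed values, 16 take 1 list alone from a mean of 2 and stay within the SD by construction. Of the other 41, 19 stayed within the spread between the lists (for shares of partnered peaks, within the exact interval) and 22 moved beyond it. Among directions that both lists shared, 1 turned in 1 list: the centre less arm difference in partnered peaks of replicate 1, from 1.97 to -4.80 points with peaks scoring 100 or more. Density on V was 22.2 peaks per Mb. It became 16.5 with peaks scoring 100 or more, 10.8 with only peaks at or above the list's median score and 18.9 with shared peaks only. The median neighbour distance, 25.4 kb, became 37.2, 53.8 and 30.5 kb in the same order. Each of these settings keeps fewer peaks. The centre to arm density ratio, 1.45, became 1.47 with scores of 100 or more, 1.49 with shared peaks and 1.66 with the middle 50% of the span against the outer 25% at each end. That split also moved the centre to arm ratio of median score from 0.94 to 1.13 and the centre less arm difference in partnered peaks from 2.57 to 4.87 points, and overlap of at least 50% of both peaks gave 3.85 points. The width difference, 1.75 bp, became 32 bp with the middle 50% as centre. The variation over bins, 38.3%, became 42.2% with scores of 100 or more, 45.9% in 500 kb bins and 42.2% in bins shifted by 500 kb. The partnered share became 64.4% in replicate 1 and 79.5% in replicate 2 with midpoints within 200 bp, and 88.8% and 85.7% with lists of equal length. The longest empty stretch, 560 kb, became 693 kb with scores of 100 or more and 740 kb with shared peaks. The cause of these shifts was not tested. Each list alone gave densities of 19.9 to 24.5 peaks per Mb, centre to arm ratios of 1.44 to 1.46, right to left ratios of 0.82 to 1.03, width differences of -24 to 27.5 bp, score ratios of 0.88 to 1.00, differences in partnered peaks of 1.97 to 3.17 points, neighbour distances of 23.3 to 27.6 kb, bin variation of 36.1% to 40.5% and longest stretches of 561 to 740 kb. No paired analysis was possible because no second group has values to pair by replicate number, and for differences within the 2 lists an exact sign-flip permutation allows no p below 0.5. Read depth being unknown, a weak site missing from a list cannot be told apart from one that lay under the authors' threshold.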
